A study of Mus musculus with 39 samples.

Results

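Tight early segments are stretches of the mouse autosomes that lay in a tightly wrapped nucleosome domain and in an early replicating domain of embryonic stem (ES) cells. They were chosen by the sign of 2 deposited values, the wrapping index of nucleosome wrapping domains (NRDs) and the replication timing (RT) value of RT domains, and each contiguous stretch of at least 100 kb in which both were above 0 was taken as a segment. There were 708 such segments among 2375 stretches of at least 100 kb on the 19 autosomes that had a call in both lists, the others being 625 tight late, 363 loose early and 679 loose late stretches. The cells were of the wild-type R1 line of mouse ES cells, grown with LIF. For the wrapping index they were crosslinked with formaldehyde, the chromatin was digested with MNase, and nucleosomes were recovered with an antibody against histone H3 in 4 libraries. For RT they were pulse-labelled with BrdU and separated by sorting into the S phase fractions S1 to S4, in 8 libraries. The paper states 2 independent experiments for each of these assays, but both lists are single calls that name no replicate. The paper states read numbers for whole libraries, but the lists hold none for a domain, so the depth behind a single segment is unknown, and spread is given over segments and over autosomes only.

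In a nucleosome, DNA is wound around an octamer of histones, and its ends can come loose. MNase trims DNA that is not held on the histones, so that the length of the remaining fragment reports how much DNA was wrapped. The index is a relative score, the z-score over the genome's bins of longer against shorter fragments, smoothed along the chromosome. Tight domains (TiNRDs) are above 0 and loose domains (LoNRDs) below it, so that 0 stands for the mean of the genome and not for equal numbers of long and short fragments. Replication timing describes when in S phase a stretch of DNA is duplicated, and early replication is known to go with gene-rich, open chromatin in mammalian cells. The RT value is a log2 ratio of early to late S phase after quantile normalization to a target, positive for early domains, so that its 0 is on a normalized scale.

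The segments covered 921 Mb, which was 37.4% of the autosomes, 73.1% of the autosomal TiNRD length and 82.2% of the autosomal early RT length. Of 561 TiNRDs on the autosomes 479 held a segment, and of 768 early RT domains 635 did. A single segment was found in 339 of these TiNRDs, 82 had 2 segments and 58 had 3 or more. The most divided was a TiNRD on chr5:98900001-107900000, with an index of 0.50 and 6 segments. Early RT domains were divided less often, with 568 of 635 holding 1 segment and 67 holding 2 or more. In 343 cases a whole early RT domain was a segment, while a whole TiNRD was a segment in 98 cases. Early domains were thus nested in TiNRDs more often than the reverse.

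The median length of a segment was 825 kb, with quartiles of 500 and 1550 kb and a range from 100 to 11000 kb. Long segments held most of the sequence. The 295 segments of at least 1 Mb had 75.3% of the total length, and 16 segments reached 5 Mb. At the other end, 12 segments measured exactly 100 kb, the lower limit, and 11 stretches of 50 kb, together 0.55 Mb, fell below it. For comparison, the median was 350 kb for tight late, 300 kb for loose early and 950 kb for loose late stretches. Segments were therefore longer than the stretches in which the lists gave opposite calls, and similar in length to loose late stretches.

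The values that chose the segments are given as a description. The wrapping index of the parent TiNRD had a median of 0.58 over segments (quartiles 0.37 and 0.84, range 0.0235 to 1.64), and the log2 RT value of the parent early domain had a median of 0.80 (quartiles 0.56 and 1.03, range 0.07 to 1.8). Segments of 1 TiNRD share its index, and segments of 1 early domain share its RT value. Over 708 segments the index and the RT value had a Pearson correlation of 0.453 and a Spearman correlation of 0.429. Length rose with both, with a Spearman correlation of 0.573 for the index and 0.615 for RT. Just above the threshold was the segment chr19:60700001-61400000, with an index of 0.0235, and just below it was the LoNRD chr1:57300001-57600000, with an index of −0.0180. For RT, the segment closest to 0 was chr17:72850001-73200000 with a log2 value of 0.07, and the nearest late domain was chr10:86200001-86550000 with −0.04.

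The ends of the segments were set more often by replication timing than by wrapping. Of 1416 ends, 785 (55.4%) were placed by the border of the early RT domain, with the TiNRD going on for more than 100 kb beyond. The TiNRD border placed 318 ends (22.5%), with early replication going on. Both borders fell on the same position at 63 ends (4.45%) and lay within 100 kb of each other at a further 250 (17.7%). NRD borders lie on a grid of 100 kb and RT borders on one of 50 kb, which limits how closely they can be compared. Directly outside the ends was tight late sequence at 679 ends (48.0%), loose early sequence at 334 (23.6%), and sequence both loose and late at 55 (3.88%). In 234 cases (16.5%) the outside was tight with no RT call. Leaving a segment thus meant that 1 of the calls changed sign at most ends, and seldom both together.

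Neighbouring segments on a chromosome were a median of 1000 kb apart (689 pairs). In 229 pairs both segments lay in the same TiNRD, with a median gap of 400 kb, and 136 of these gaps held late replicating sequence while 93 held only sequence without an RT call. In 73 pairs both lay in the same early RT domain, with a median gap of 200 kb. The widest gap between neighbours measured 23950 kb.

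The share of a chromosome in segments differed widely. Chromosome 11 had the highest share, 55.2%, followed by chromosome 19 with 45.4% and chromosome 5 with 44.8%. Chromosome 3 had the lowest, 25.6%, then chromosome 1 with 29.2%. Over the 19 autosomes this share had a Spearman correlation of 0.896 with the number of protein-coding genes per Mb of the whole chromosome, where the points share the gene annotation and the base composition of the chromosome. Segments were also placed unevenly along chromosomes. They made up 52.4% of the last 10 Mb of the autosomes, from 15.9% on chromosome 3 to 88.5% on chromosome 4, against 30.9% of the first 10 Mb of assembled sequence beside the centromere, where the range was from 5% on chromosome 9 to 73.5% on chromosome 19.

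Base composition was not used by the rule. Segments had an A/T content of 54.5% over assembled bases, lower than the 56.9% of tight late, 60.0% of loose early and 61.5% of loose late stretches. It was the lowest of the 4 kinds on each of the 19 autosomes, with an SD of 0.810 percentage points over the autosomes for the segments. The difference from tight late stretches averaged −2.25 points over autosomes (SD 0.757), that from loose early −5.28 (SD 0.967) and that from loose late −6.81 (SD 0.888). A/T content therefore differed more with the wrapping call than with the timing call. Single segments ranged from 49.2% on chr4:151550001-152700000 to 61.1% on the 100 kb segment chr17:21900001-22000000, and 0 of the 708 exceeded the pooled loose late value.

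CpG dinucleotides, the sites of DNA methylation in mammals and depleted in most of the genome, were also counted. The ratio of observed to expected CpG was 0.224 in the segments, against 0.186 in tight late, 0.182 in loose early and 0.154 in loose late stretches. The segments had the highest ratio on 19 of 19 autosomes. In CpG per kb of assembled sequence this was 11.6 for the segments and 5.70 for loose late stretches. Bases marked as repeats made up 28.6% of the segments, 30.0% of tight late, 37.4% of loose early and 38.7% of loose late stretches. The repeat share was lower than in loose early and loose late stretches on all 19 autosomes, but lower than in tight late stretches on 10 of 19 only. With repeats left out the segments still had the lowest A/T content and the highest CpG ratio on 19 of 19 autosomes.

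Among the segments themselves, A/T content went with the wrapping index more closely than with RT. Over 708 segments the Spearman correlation of A/T content was −0.813 with the index and −0.475 with RT, and among the 295 segments of at least 1 Mb it was −0.865 and −0.578. Segments in 1 parent domain share a value, neighbouring sequence shares its composition, and fragment lengths were read from the same DNA whose composition is compared. The part of base composition in the index was not tested here. The paper compared A/T content with the index in bins far smaller than these segments and reported a weaker inverse correlation. It reported weak correlations of A/T content with fragment length, and a bias of MNase towards A/T at cutting sites in both kinds of wrapping domain. In the 177 segments with the lowest index the A/T content was 57.4%, and in the 177 with the highest it was 52.9%. Between the 177 segments lowest and the 177 highest in RT it went from 56.3% to 53.3%. The CpG ratio changed little along the index, with a Spearman correlation of 0.0207, from 0.219 in the 177 segments of lowest index to 0.227 in the 177 of highest. Within the segments, tighter wrapping thus came with lower A/T content and without a like rise in CpG beyond base composition.

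Genes were placed by their annotated start. Of 20807 autosomal protein-coding genes 14497 (69.7%) started in a tight early segment, which is 15.7 genes per Mb against 8.45 per Mb for all autosomal sequence. Tight late stretches had 5.24, loose early 8.73 and loose late 2.98 genes per Mb. The segments had more genes per Mb than tight late and loose late stretches on 19 of 19 autosomes, with an SD of 3.14 over autosomes. Against loose early stretches this was so on 18 of 19. The exception was chromosome 13, where the segments had 10.5 and the loose early stretches 13.8 genes per Mb. Of the 128 genes in those loose early stretches, 32 were replication-dependent histone genes and 7 vomeronasal receptor genes. Without both families the values on chromosome 13 were 10.11 in the segments and 9.57 in the loose early stretches. Annotated long non-coding RNA genes were also densest in the segments, with tight late and loose early stretches in the opposite order, at 6.29 per Mb in the segments, 4.13 in tight late, 2.97 in loose early and 1.67 in loose late stretches, and the density in the segments was the highest on 18 of 19 autosomes, chromosome 18 being the exception.

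Gene density within the segments rose with both values. The Spearman correlation of genes per Mb was 0.461 with RT and 0.302 with the index (n = 708 segments), and 0.679 and 0.502 among segments of at least 1 Mb. The 177 segments with the highest RT values had 21.2 genes per Mb and the 177 with the lowest had 8.70. By the index, the 177 highest had 19.9 and the 177 lowest 10.5. There were 84 segments among the 177 highest in both values, with a median length of 2925 kb. They made up 32.5% of the segment length and held 47.7% of its protein-coding genes, at 23.1 per Mb. The 77 segments among the 177 lowest in both had a median length of 350 kb and 8.68 genes per Mb. The 21 segments among the 177 highest in index and the 177 lowest in RT had 8.06 genes per Mb, close to the latter, at an A/T content of 54.5%. The 10 segments among the 177 lowest in index and the 177 highest in RT had 13.5 genes per Mb, below the 23.1 of the segments highest in both.

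Gene density also differed between the kinds at equal base composition. In 100 kb bins with an A/T content of 54 to 56%, the segments had 13.3 genes per Mb (2217 bins) and tight late stretches 3.97 (551 bins), and 66.5% against 29.6% of the bins held a gene start. At 56 to 58% the segments had 11.8 (2099 bins), tight late 4.64 (1118 bins), loose early 11 (90 bins) and loose late stretches 4.50 genes per Mb (120 bins). At 58 to 60% the values were 11.9, 6.51, 9.48 and 3.65, and at 60 to 62% they were 9.02, 11.4, 8.46 and 3.36, where the segments had 153 bins and tight late stretches 76. Loose early bins were few below 56%, with 20 genes per Mb in 6 bins at 54 to 56% and 24 in 5 bins at 52 to 54%, where the segments had 17.2. At equal A/T content, therefore, tight late bins stayed below the segments between 52 and 60%. Loose early bins were above the segments between 52 and 56%, where they were few, and below them between 56 and 62%. At 62 to 64% the segments had 3.33 genes per Mb in 12 bins only. Loose early bins had 5.05 there (105 bins) and tight late bins 7.22 (18 bins). Tight late bins were thus above the segments from 60 to 64%.

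Single domains divided by the other call were compared next, without matching base composition. In 318 TiNRDs that held both a segment and a tight late stretch, the early part had the lower A/T content in 277, with a median difference of −1.44 percentage points (quartiles −2.49 and −0.635), and more genes per Mb in 274, with a median difference of 7.81. The pooled densities were 15.8 and 4.97 genes per Mb. In 200 early RT domains that held both a segment and a loose early stretch, the tight part had the lower A/T content in 193, with a median difference of −2.58 points (quartiles −3.91 and −1.69). Its gene density was higher in 130 of them and lower in 66, with a median difference of 3.25 genes per Mb, and the pooled densities were 16.9 and 9.90 genes per Mb. Within domains, composition and gene density thus differed with both calls.

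The longest segment was chr15:75450001-86450000, with an index of 1.32, an RT value of 1.53, an A/T content of 51.3% and 263 protein-coding genes. It held Rpl3 and Rpl8 of the large ribosomal subunit, the helicase gene Recql4, and Sox10, a regulator of neural crest cells. It was followed by chr4:131600001-142500000 with 209 genes, among them Lin28a, which encodes an RNA-binding protein of pluripotent cells, and Arid1a, a subunit of BAF remodelling complexes. The next were chr17:23400001-33200000 with 268 genes, chr5:110000001-118950000 with 122 and chr2:151350001-159400000 with 167. The last of these held Dnmt3b, a de novo DNA methyltransferase, beside 11 defensin genes. These 5 segments had indices between 1.00 and 1.32 and RT values between 1.29 and 1.76.

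The highest index, 1.64, was that of chr10:79400001-82200000, which also had 50 genes per Mb and an A/T content of 49.4%. It held Mbd3 of the NuRD complex, Polr2e of RNA polymerases and Rps15 of the small ribosomal subunit. The next by index lay in pairs. The segments chr11:114300001-121900000 and chr11:113150001-114100000 shared an index of 1.49, and chr2:28100001-34200000 and chr2:24450001-28050000 shared 1.48. In the chromosome 11 pair the earlier segment had the higher gene density, with RT values of 1.62 and 0.75 and with 26.3 and 8.42 genes per Mb. In the chromosome 2 pair the earlier segment had the lower density, with RT values of 1.47 and 1.31 and with 19.5 and 30.8 genes per Mb. These 2 segments held 119 and 111 genes. A common index therefore went with different gene densities in neighbouring segments.

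The highest RT value, 1.8, belonged to chr19:3200001-7800000, which held 183 genes, among them Pola2 and Pold4 of the replicative DNA polymerases. The next were chr10:126650001-129100000 with 1.79, chr11:93600001-99400000 with 1.76, chr4:131600001-142500000 with 1.76 and chr7:18600001-20000000 with 1.76. The segment on chromosome 11 held the Hoxb genes, Cdc6 and Top2a. Most gene-dense among segments of at least 1 Mb was chr17:33400001-36350000 with 155 genes, 52.5 per Mb. It lies in the major histocompatibility complex and held Pou5f1, Daxx and the immunoproteasome genes Psmb8 and Psmb9. It was followed by the segment of highest index on chromosome 10, chr7:18600001-20000000 with 46.4 genes per Mb, chr10:126650001-129100000 with 42.9 and chr17:55800001-57400000 with 40.6.

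Gene-poor segments were few and mostly short. No protein-coding gene started in 24 segments, which had a median length of 225 kb. Among those of at least 500 kb there were 2. The longer was chr14:52750001-53850000, of 1100 kb, with an index of 0.67, an RT value of 0.32 and an A/T content of 58.7%. It is the variable region of the T cell receptor alpha locus, whose gene pieces are joined during T cell development, and 98 variable gene segments and 16 variable pseudogenes were annotated in it as types of their own, so that they do not count as protein-coding here. The other was chr8:108500001-109000000, with an index of 0.75, an RT value of 0.46, an A/T content of 53.4% and a CpG ratio of 0.282. It lies in the annotated span of Zfhx3, a homeobox and zinc finger transcription factor gene whose start is outside the segment, and holds 3 long non-coding RNA genes.

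The network of pluripotency factors, which keeps ES cells self-renewing, lay largely inside the segments. Of 33 pluripotency genes 30 (90.9%) started in a segment, beside 69.7% of all autosomal protein-coding genes, in 28 different segments. Pou5f1, which encodes OCT4, was in a TiNRD with an index of 1.31 and an early domain with an RT value of 1.65. Sox2, its partner on DNA, lay at 0.40 and 0.72. Nanog shared a segment of 1000 kb with Gdf3 and Dppa3, at 0.45 and 1.28. The index was thus similar for Sox2 and Nanog and higher for Pou5f1, and all of them were early. Over the 30 genes inside, the median index was 0.83 and the median RT value 1.16, close to the 0.90 and 1.22 of all genes in segments. The lowest RT value among them was that of Tet2, a 5-methylcytosine oxidase, at 0.49 and with an index of 0.13.

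Genes of the list outside the segments were all early but loosely wrapped. Zfp42, the marker gene known as Rex1, lay in a LoNRD with an index of −0.76 and in an early domain with an RT value of 0.80. Dppa2 and Dppa4, neighbouring genes for a pair of chromatin proteins of early embryos, lay in a LoNRD at −0.56 and in an early domain at 0.69. No pluripotency gene lay in late replicating sequence, as 33 of 33 had an early call. Of all autosomal protein-coding genes 69.7% were tight early and 5.21% loose early. These shares leave out genes with an early call but no wrapping call.

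Genes of the machinery that copies DNA were counted in the same way. Of 55 DNA replication genes 46 (83.6%, 95% Wilson interval 71.7 to 91.1%) started in a segment, in 40 different segments, beside 69.7% of all genes. Such intervals treat genes as independent, although neighbouring genes share a segment. The 69.7% set beside the lists also counts olfactory and vomeronasal receptor genes, few of which were in segments. Without both families 14310 of 19389 promoters were in segments, a share above 69.7%, so 69.7% is a low background for lists without such receptors. The genes with the highest RT values were Pola2 and Pold4, subunits of the replicative polymerases (index 1.07, RT 1.8), and Prim1 and Timeless, for the primase and a protein of the replication fork (0.83 and 1.79). Cdc6, which loads the replicative helicase at origins, and Top2a, a topoisomerase, lay at 1.10 and 1.76. Pcna, the sliding clamp, had 0.75 and 1.01. The helicase subunit gene Mcm3 had the lowest RT value of the list inside the segments, 0.37, with an index of 0.38. Replication genes thus spanned most of the RT range of the segments.

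Genes of the list outside the segments numbered 9. In loose early stretches lay the helicase subunit gene Mcm4 (index −0.23, RT 1.26), the origin recognition genes Orc1 (−0.24 and 1.08) and Orc5 (−0.22 and 0.34), the kinase activator gene Dbf4 (−0.20 and 0.60) and the clamp loader gene Rfc3 (−0.23 and 0.55). All 5 had an index close to the threshold. Loose late were Orc4 (−1.04 and −0.94) and Rpa3, a subunit of the protein that binds single-stranded DNA (−0.76 and −0.78). Cdc7, the partner kinase of Dbf4, was tight late (0.50 and −0.28), and Orc3 had no wrapping call at an RT value of 0.97. Of the origin recognition genes only Orc2 and Orc6 of the list were in segments.

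Histone chaperones hand histones to and from DNA when nucleosomes are built or opened. Of 18 histone chaperone genes 15 (83.3%) started in a segment, each in a segment of its own. The 95% Wilson interval of this share, 60.8 to 94.2%, holds the 69.7% of all genes. Chaf1a and Chaf1b, subunits of the chromatin assembly factor that works at replication forks, lay at an index of 1.42 and 0.94 and an RT value of 1.63 and 1.27. Supt16 and Ssrp1, the subunits of FACT, had indices of 0.67 and 0.78 and RT values of 1.32 and 1.05. Asf1b had 0.97 and 1.52, Hira 1.09 and 1.26, and Daxx 1.31 and 1.65, the last in the segment of Pou5f1. The lowest values of the list inside the segments were those of Nap1l1, at 0.28 and 0.62. Outside were Nasp, in a loose early stretch (−0.18 and 1.5), Asf1a, in late sequence with no wrapping call (RT −0.85), and Hjurp, in a TiNRD with no RT call (index 1.15).

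Other nuclear complexes were compared with the same 69.7% of all genes. Of 29 chromatin remodeller genes 24 (82.8%) were in segments, with a 95% Wilson interval of 65.5 to 92.4% that holds the share of all genes. The highest RT values were found for Baz2a and Smarcc2 (1.79), Arid1a (1.76) and Smarca4, the BRG1 ATPase of BAF complexes (1.74). Chd1, Baz1a and Hells were early but loose, with RT values of 1.10, 1.09 and 1.06 and indices of −0.75, −0.94 and −0.22. Smarca2, the paralogue of Smarca4, was tight late at 0.27 and −0.89, and Arid1b lay in a TiNRD without an RT call. Of 39 genes for RNA polymerase II and its general factors 36 (92.3%, interval 79.7 to 97.3%) were in segments, with the highest RT values for Ercc2 (1.76), Gtf2h4 and Nelfe (1.65) and Gtf2f1 (1.63). Of 34 splicing genes for Sm, SF3 and Prpf proteins 29 (85.3%, interval 69.9 to 93.6%) were in segments.

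Genes for housekeeping functions were mostly above the 69.7% of all genes. The shares were 72 of 79 (91.1%) for cytosolic ribosomal proteins, in 60 different segments, 35 of 38 (92.1%) for proteasome subunits, 31 of 34 (91.2%) for subunits of respiratory complex I, and 18 of 20 (90%) for cytosolic aminoacyl-tRNA synthetases. All 15 glycolysis genes of the list were in segments, with the highest RT values for Gapdh and Tpi1 (1.56), Aldoc (1.52) and Aldoa (1.46), and the lowest for Pfkp (0.32). Among the exceptions Rpl10l, a gene for a ribosomal protein of the testis, was loose late (−1.01 and −0.81), as was Snrpn, a splicing gene expressed in neurons (−0.92 and −0.83). The genes of each of these complexes were thus scattered over many segments, and most replicated early in tightly wrapped chromatin.

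Developmental regulators, most of them silent or poised in ES cells, were compared with the 69.7% of all genes as well. All 39 Hox genes, which set positions along the body axis, lay in 4 segments, 1 for each cluster. The Hoxb cluster had the highest values (index 1.10, RT 1.76), followed in RT by Hoxc (0.85 and 1.53), Hoxa (0.66 and 0.92) and Hoxd (0.27 and 0.76). The segment of the Hoxd cluster, chr2:74500001-75000000, measured 500 kb. Of 29 autosomal genes for early lineage transcription factors 23 (79.3%, 95% Wilson interval 61.6 to 90.2%) were in segments, in 23 different ones, and Sox3 of the list is not autosomal. The highest RT values were those of Pax7 (1.76), Nkx2-5 (1.65), Tbx6 (1.46) and Hnf4a (1.41), genes of muscle, heart, mesoderm and liver. Among the genes outside, Gata6 of primitive endoderm was tight late (0.33 and −0.61), Sox17 of endoderm was loose early (−0.57 and 0.72), and Isl1, a gene of motor neurons and heart, was loose late (−0.75 and −0.86). Foxa1 and Foxa2 had no RT call. Of 80 genes of the T box, Fox, Sox and Pax families 63 (78.8%, interval 68.6 to 86.3%) were in segments. The intervals of the lineage factors and of these families hold the share of all genes. Expression was not measured in these lists.

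C2H2 zinc finger genes, which often lie in clusters, were picked by symbol alone (Zfp and a number), and their class was not checked. Of these genes 280 of 358 (78.2%, 95% Wilson interval 73.6 to 82.2%) were in 115 segments, beside 69.7% of all genes. A further 36 were in loose early stretches, beside 5.21% of all genes. The most in a single segment was 21, in chr7:26700001-31300000, at an index of 1.11 and an RT value of 1.62. That segment also held 7 cytochrome P450 genes. Cytochrome P450 genes, for enzymes of drug and steroid metabolism, had 57 of 99 members (57.6%) in 28 segments, below the share of all genes.

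Other gene families had shares below the 69.7% of all genes. Of 39 voltage-gated potassium channel genes 21 (53.8%, 95% Wilson interval 38.6 to 68.4%) were in segments, and of 106 genes for keratins and keratin-associated proteins 54 (50.9%), in 7 segments. The clusters of the latter list were split between kinds, with 28 members tight late and 22 loose late. Of all genes 7.15% were tight late and 13.5% loose late. Of 89 protocadherin and cadherin genes 45 (50.6%) were in 10 segments, and 35 of these lay in a pair of segments on chromosome 18, chr18:33650001-37000000 with 9 and chr18:37500001-39200000 with 26, where the neuronal protocadherin clusters are found. Both lie in the same TiNRD, with an index of 0.69, and their RT values were 1.54 and 1.37. Of 64 defensin genes, for antimicrobial peptides, 20 (31.3%) were in 3 segments and 28 were tight late, beside 7.15% tight late of all genes.

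Replication-dependent histone genes, which supply histones in S phase, stood apart from the replication genes. Of 66 histone genes 23 (34.8%) were in segments, beside 69.7% of all genes, while 32 were in loose early stretches and 11 had a missing call. Of all genes 5.21% were in loose early stretches and 4.45% outside the 4 kinds. Those inside lay in 3 segments. There were 11 in chr13:21800001-22200000, whose index of 0.0395 was the next to lowest of all segments, at an RT value of 0.89. A further 10 lay in chr3:94250001-98050000 (0.73 and 1.31) and 2 in chr11:58800001-63400000 (0.87 and 1.21). No gene of the list was in a tight late or loose late stretch, beside 7.15% and 13.5% of all genes. With 3 segments behind 23 genes, the share rests on few positions, and in segments of at least 500 kb it was 18.2%.

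Chemoreceptor genes, which are expressed in sensory neurons of the nose, had low shares. Of 1086 olfactory receptor genes 157 (14.5%) were in segments and 711 were loose late, where all genes had 69.7% in segments and 13.5% in loose late stretches. Those inside were spread over 30 segments, with the most, 17, in chr11:49400001-52750000. Of 325 vomeronasal receptor genes 28 (8.62%) were in segments and 171 were loose late. The lowest share was that of long neuronal genes for adhesion and synapse proteins, with 1 of 26 (3.85%), or 0 with the whole gene inside. This list was made of long genes, and of all genes of at least 500 kb only 21.1% were in segments. The gene of the list that started in a segment was Ctnna3, for an alpha catenin, at an index of 1.00 and an RT value of 1.34. Of the others 23 were loose late, while Opcml was tight late (0.43 and −0.86) and Dlg2 loose early (−0.90 and 0.80).

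The share of genes in segments changed with gene length. Of genes under 10 kb 64.4% were in segments, or 73.7% without olfactory and vomeronasal receptors. The share was 77.9% for genes of 10 to 50 kb, 72.0% for 50 to 100 kb, 56.3% for 100 to 500 kb and 21.1% (46 of 218) for genes of at least 500 kb. Of the genes of at least 500 kb 52.8% were loose late, beside 13.5% of all genes. Long genes that started in a segment, though they may reach beyond it, included Ptprt, a receptor phosphatase gene (1139 kb, index 1.21, RT 1.41), Cacna1c, a calcium channel gene (609 kb, 0.94 and 1.26), and Rad51b, a gene of homologous recombination (517 kb, 0.50 and 0.87). Long genes therefore started in the segments less often than short genes, and the segments in which they started covered a wide range of both values.

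Promoters were compared as the 250 bases before and the first 50 bases from the annotated start, read from the genome for 20802 of the 20807 genes. In the 14495 promoters in segments the median number of CpG was 15 (quartiles 6 and 25), against 4 in tight late, 10 in loose early and 2 in loose late stretches and 12 over all promoters. At least 15 CpG were present in 51.8% of promoters in segments and in 26.5%, 41.2% and 17.0% of those in tight late, loose early and loose late stretches. Without olfactory and vomeronasal receptors the shares were 52.4% in segments, 28.7% in tight late, 46.5% in loose early and 24.8% in loose late stretches, which leaves a smaller difference between the segments and loose early stretches. Promoters of the segments were thus the richest in CpG of the 4 kinds, with a wide spread within the segments.

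Short motifs were searched on both strands of these 300 bases. The letters TATAAA, as in a TATA box, occurred in 9.14% of promoters in segments, 16.8% in tight late, 14.5% in loose early and 26.9% in loose late stretches, and in 12.7% of all promoters. CCAAT, the CCAAT box, occurred in 37.5%, 41.1%, 43.6% and 40.8% in the same order, and in 38.6% of all. GGGCGG, a GC box, occurred in 51.1%, 28.8%, 39.1% and 18.6%, and in 43.7% of all. GCATGCGC, the core of the site of NRF1, occurred in 4.02%, 2.08%, 3.32% and 1.46%, and in 3.45% of all. The motifs with CpG were thus most frequent in the segments and TATAAA least frequent there. A match says only that the letters are present.

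The promoters of 4 genes show this spread, and were chosen after their values were seen. Klf4 and Nanog encode pluripotency factors and lie in segments with similar indices, 0.40 and 0.45, yet the 250 bases before the start held 32 CpG and 4 matches to GGGCGG for Klf4, and 3 CpG and no match to any of the motifs for Nanog. Mcm5 and Mcm4 encode subunits of the same helicase, the former in a segment (0.69 and 1.13) and the latter in a loose early stretch (−0.23 and 1.26), and each had 23 CpG. Mcm5 had 3 matches to CCAAT and Mcm4 had 1. The sequences are from GRCm38, 5′ to 3′ on the strand of the gene, and capitals mark motif matches on either strand.
Klf4 promoter, chr4:55532467-55532716, minus strand: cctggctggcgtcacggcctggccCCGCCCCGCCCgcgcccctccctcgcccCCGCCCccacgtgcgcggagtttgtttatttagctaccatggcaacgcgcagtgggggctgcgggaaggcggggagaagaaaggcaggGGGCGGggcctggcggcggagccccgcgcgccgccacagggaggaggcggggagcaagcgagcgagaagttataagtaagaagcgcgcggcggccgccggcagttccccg
Nanog promoter, chr6:122707239-122707488, plus strand: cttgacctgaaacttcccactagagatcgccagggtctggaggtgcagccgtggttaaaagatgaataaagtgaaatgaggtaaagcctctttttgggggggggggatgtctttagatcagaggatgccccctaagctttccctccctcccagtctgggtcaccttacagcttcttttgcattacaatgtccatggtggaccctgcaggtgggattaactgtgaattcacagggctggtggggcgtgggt
Mcm5 promoter, chr8:75109319-75109568, plus strand: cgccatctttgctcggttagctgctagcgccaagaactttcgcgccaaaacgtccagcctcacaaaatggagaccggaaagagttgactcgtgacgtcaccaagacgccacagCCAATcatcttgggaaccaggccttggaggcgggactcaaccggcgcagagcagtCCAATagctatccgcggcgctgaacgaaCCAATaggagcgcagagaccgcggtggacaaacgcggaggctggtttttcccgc
Mcm4 promoter, chr16:15637401-15637650, minus strand: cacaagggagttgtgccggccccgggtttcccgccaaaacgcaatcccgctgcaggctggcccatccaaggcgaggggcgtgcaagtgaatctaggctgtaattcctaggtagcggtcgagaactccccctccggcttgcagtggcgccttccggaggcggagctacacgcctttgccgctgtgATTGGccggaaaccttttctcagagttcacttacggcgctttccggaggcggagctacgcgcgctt

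Windows of 200 bases give examples of sequence inside and outside the segments. The midpoint of the longest segment, on chromosome 15, had 3 CpG and an A/T content of 45%, lay in an exon of a non-coding transcript of Adsl, and had 107 bases marked as repeat. For contrast, the midpoint of the longest loose late stretch, chr14:106100001-114300000 with an index of −1.01 and an RT value of −0.83, had 4 CpG and an A/T content of 51.5%, outside any annotated gene. The third window was the richest in CpG outside annotated UTRs in chr10:121150001-121900000, the segment with the highest ratio of observed to expected CpG (0.297). It had 31 CpG and an A/T content of 24%, and lay in exons of Tbc1d30 and of the antisense gene Gm48435. Capitals mark CpG, and the build is GRCm38.
Midpoint of the longest segment, chr15:80949901-80950100, plus strand: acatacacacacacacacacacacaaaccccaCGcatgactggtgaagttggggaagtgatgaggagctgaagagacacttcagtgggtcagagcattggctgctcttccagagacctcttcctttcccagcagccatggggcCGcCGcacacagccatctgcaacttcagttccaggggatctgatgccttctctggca
Midpoint of the longest loose late stretch, chr14:110199901-110200100, plus strand: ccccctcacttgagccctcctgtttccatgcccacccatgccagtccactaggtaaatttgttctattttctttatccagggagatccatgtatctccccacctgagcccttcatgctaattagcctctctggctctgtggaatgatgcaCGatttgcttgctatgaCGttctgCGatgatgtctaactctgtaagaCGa
Window with the most CpG, chr10:121351228-121351427, plus strand: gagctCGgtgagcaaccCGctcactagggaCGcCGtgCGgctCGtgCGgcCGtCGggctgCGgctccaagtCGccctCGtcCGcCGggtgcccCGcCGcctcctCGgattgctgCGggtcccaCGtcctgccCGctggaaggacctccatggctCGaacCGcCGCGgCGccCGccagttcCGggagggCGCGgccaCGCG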

How the data were processed

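The deposited NRD list holds a score for each domain, which the authors made as a smoothed z-score of H3 fragment lengths in 100 kb bins. The deposited RT list holds a log2 ratio for each domain, which the authors made from early and late S phase fragments in 50 kb windows and quantile normalized. The authors trimmed with cutadapt 4.3, aligned to mm10 with Bowtie2 2.5.1, filtered with Picard and SAMtools, counted with bedtools 2.30.0 and called domains with homer. The other libraries and the tracks of the series were not analysed here, nor were the Hi-C data that the paper downloaded.

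Domains were intersected with Python 3.11.15, numpy 2.4.6 and pandas 2.3.3. All 708 segments were also found with bedtools 2.31.1, and the code was tested on simulated data. Base composition came from GRCm38, in which 0 autosomes had a domain past the end, and genes from GENCODE M21. Segments named are the 5 longest, the 5 with the highest index, RT value and gene density (at least 1 Mb), those of at least 500 kb without a gene, and those next to a threshold. Genes named are list members, for pluripotency, replication and chaperones those outside the segments and core members inside, otherwise up to 4 by RT value. Other genes and segments named were chosen after their values were seen. The members and lists were chosen with earlier results of these data known. No test was made, since each list is a single call. Alternatives varied the minimum length, joining, thresholds, repeats, trimming and the placing of genes.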

Additional observations from a re-analysis of the deposited data

How the results depend on the processing

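Lengths and counts were compared within 1.5 times, composition and gene density within 1 SD over the 19 autosomes, and gene shares within the 95% Wilson interval, since the lists used hold no spread between replicates. No paired analysis was possible because each list is a single call, and leaving out each replicate could not be run from these lists. Tracks of single replicates were not analysed. Of 26 alternative values other than list shares 4 moved further. The A/T content was 53.4% with repeats left out and 55.9% as the median over segments, which gives short segments equal weight. The ratio of observed to expected CpG was 0.242 with repeats left out. The share of genes in segments was 72.7% among genes called in both lists, which have a smaller denominator. These values were compared as levels of the segments only, so that a change of direction was not assessed for them. Of 72 shares of the 24 gene lists 68 stayed in the interval, and under each setting all 24 lists lay on the same side of the share of all genes, 15 above and 9 below. The 4 others were the zinc finger and T box, Fox, Sox and Pax lists among genes called in both lists, histones in segments of at least 500 kb (18.2%), and long neuronal genes with the whole gene inside. Intervals of short lists are wide, such as 60.8 to 94.2% for histone chaperones, and the alternatives use mostly the same genes. For short lists, staying in the interval therefore says little. The lists hold no read number for a domain, so the precision of its value could not be given.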
